A study of Mus musculus with 8 samples.

Results

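The 10 genes that set and sense the myeloid fate were described in RNA of long-term haematopoietic stem cells (LT-HSCs): Cebpa, Cebpb, Cebpe, Spi1, Irf8, Klf4, Csf1r, Csf3r, Csf2rb and Itgam. They were chosen by symbol, as transcription factors and colony-stimulating factor (CSF) receptors of myeloid development with 1 integrin of mature myeloid cells, and they are 10 of the 54749 genes with a listed transcript. All 10 had enough reads to be among the 21902 genes tested. The data are 8 RNA-seq libraries, 1 for each mouse, which compare mice without asrij, the gene Ociad1, with floxed mice. The asrij floxed group (replicates 1, 3, 4 and 5) carries the floxed, undeleted asrij alleles in homozygous form, and the asrij KO group (replicates 2, 3, 4 and 5) lacks asrij in the whole body and not in blood cells alone. The labels give both groups an age of 6 months, and the cells were sorted from bone marrow by surface markers. For the RNA-seq, the methods give a gate of LSK cells positive for both CD150 and CD48, whereas for other assays of the same study they give a gate negative for CD48, so that it is not settled to which of these cells the levels refer. Levels are given as CPM, which are counts relative to the size of the library as scaled by the TMM method, and a gene is said to have passed the test where the adjusted p-value of edgeR's quasi-likelihood test over all tested genes was under 0.05.

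The gene counts summed to 23412829 to 44874882 per library. Ociad1 ranged from 31.3 to 66.9 CPM in the floxed and from 11.7 to 19.7 CPM in the KO libraries (log2 fold change -1.58, SE 0.27, adjusted p = 0.0249 from edgeR). The 10 stem and progenitor markers summed to 119 to 178 CPM per library. Of the genes of the sort, Kit had 46.8 to 60.2 CPM, Ly6a, which encodes Sca-1, 4.29 to 15.2 CPM and Slamf1, which encodes CD150, 0.881 to 4.39 CPM. Ngp, which encodes a granule protein of neutrophils, had 3437 to 18427 CPM in the same libraries. The 10 neutrophil markers summed to 16354 to 50751 CPM in floxed and 24185 to 31289 CPM in KO libraries. The myeloid genes were thus read in RNA that also held abundant transcripts of neutrophil genes. The stage of maturation of the cells they came from was not tested. Haemoglobin genes took 2.85% to 7.67% of the gene counts in floxed and 12.2% to 24.3% in KO libraries. In such bulk RNA, fewer cells of a type and less RNA per cell cannot be told apart.

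Myeloid development is driven by a small set of transcription factors that act together. PU.1, the product of Spi1, opens the myeloid and lymphoid programmes, C/EBPα starts the granulocyte-monocyte branch, C/EBPε is needed for late granulocyte maturation, C/EBPβ drives granulocyte production on demand, and IRF8 and KLF4 favour monocytes and dendritic cells. These factors switch on the receptors through which the colony-stimulating factors act. CSF1R is the receptor of M-CSF and IL-34, CSF3R that of G-CSF, and CSF2RB is the common β chain of the receptors of GM-CSF, IL-3 and IL-5. Itgam encodes CD11b, the α chain of the integrin Mac-1.

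Promoters of members are shown because PU.1 and the C/EBP, IRF and KLF factors measured here act on promoters of myeloid genes. RefSeq promoters of GRCm38.p6, from 250 bases before to 50 bases after the RefSeq start of a gene, were found for 6 members, namely Cebpa, Cebpb, Irf8, Klf4, Csf3r and Itgam. The purine-rich core of PU.1 sites, searched as GAGGAA on both strands, stood in the windows of 2 of these 6, Csf3r and Itgam, and in 28.3% of all 32851 promoters. In the Csf3r window it began at position -86, and in the Itgam window at -84 and, on the opposite strand, at -15 and 33, counted from the RefSeq start of the gene. For Csf3r this start lies 109 bases inside the span that GENCODE gives the gene, so that its core lies within that span, while for Itgam both starts are the same. The C/EBP core, searched as TTGCNNAA, stood in 0 of the 6 windows and in 10.8% of all promoters, and the IRF core GAAANNGAA in 1 of the 6, Csf3r, and in 8.56%. The KLF core CACCC stood in 4 of the 6 and in 57.5%. These matches are letters in a window, and no binding was measured. The windows of both genes with the PU.1 core are written 5′ to 3′ with that core in capitals on either strand, and that of Cebpb, whose window has a GC content of 80.7%, is set beside them.
Csf3r, chr4:126024409-126024708, plus strand: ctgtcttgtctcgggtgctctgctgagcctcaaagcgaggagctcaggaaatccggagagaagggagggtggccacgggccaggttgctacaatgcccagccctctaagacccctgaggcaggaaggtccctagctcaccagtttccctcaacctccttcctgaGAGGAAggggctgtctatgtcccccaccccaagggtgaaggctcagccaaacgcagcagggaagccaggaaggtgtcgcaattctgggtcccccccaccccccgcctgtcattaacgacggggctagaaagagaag
Itgam, chr7:128062390-128062689, plus strand: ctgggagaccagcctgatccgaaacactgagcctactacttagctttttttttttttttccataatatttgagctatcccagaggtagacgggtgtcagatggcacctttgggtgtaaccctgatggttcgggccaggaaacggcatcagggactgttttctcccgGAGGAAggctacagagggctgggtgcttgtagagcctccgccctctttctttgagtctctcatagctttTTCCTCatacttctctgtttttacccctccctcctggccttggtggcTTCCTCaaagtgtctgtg
Cebpb, chr2:167688665-167688964, plus strand: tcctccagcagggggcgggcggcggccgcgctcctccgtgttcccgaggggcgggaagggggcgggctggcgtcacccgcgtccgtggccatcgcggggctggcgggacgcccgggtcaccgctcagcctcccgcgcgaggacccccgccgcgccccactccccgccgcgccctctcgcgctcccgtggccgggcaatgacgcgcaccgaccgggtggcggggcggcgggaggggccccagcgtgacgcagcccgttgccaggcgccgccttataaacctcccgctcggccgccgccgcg

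None of the members passed the test when all 8 libraries were compared, while 2.97% of all tested genes did, 1.75% lower and 1.22% higher in KO mice. None met the study's further limit of a log2 fold change beyond 1.5, met by 1.19%. Each of the 10 had a log2 fold change below 0 in KO against floxed mice, where 50.4% of all tested genes had one. The median was -0.25 for the members and -0.0058 for all tested genes. At an unadjusted p under 0.05, 4 members were lower in KO mice (Csf3r, Csf2rb, Itgam and Klf4), a share to be read against 12.1% of all tested genes. DESeq2 called 2 of them, Csf3r and Csf2rb, lower, as it did 6.2% of all its tested genes. So did edgeR with library totals in place of TMM, which called 3.52% lower, and limma-voom called 0 members. The 4 lower members are 2 of the 3 receptor genes, the integrin gene and 1 of the 6 transcription factor genes.

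**Figure D1:**
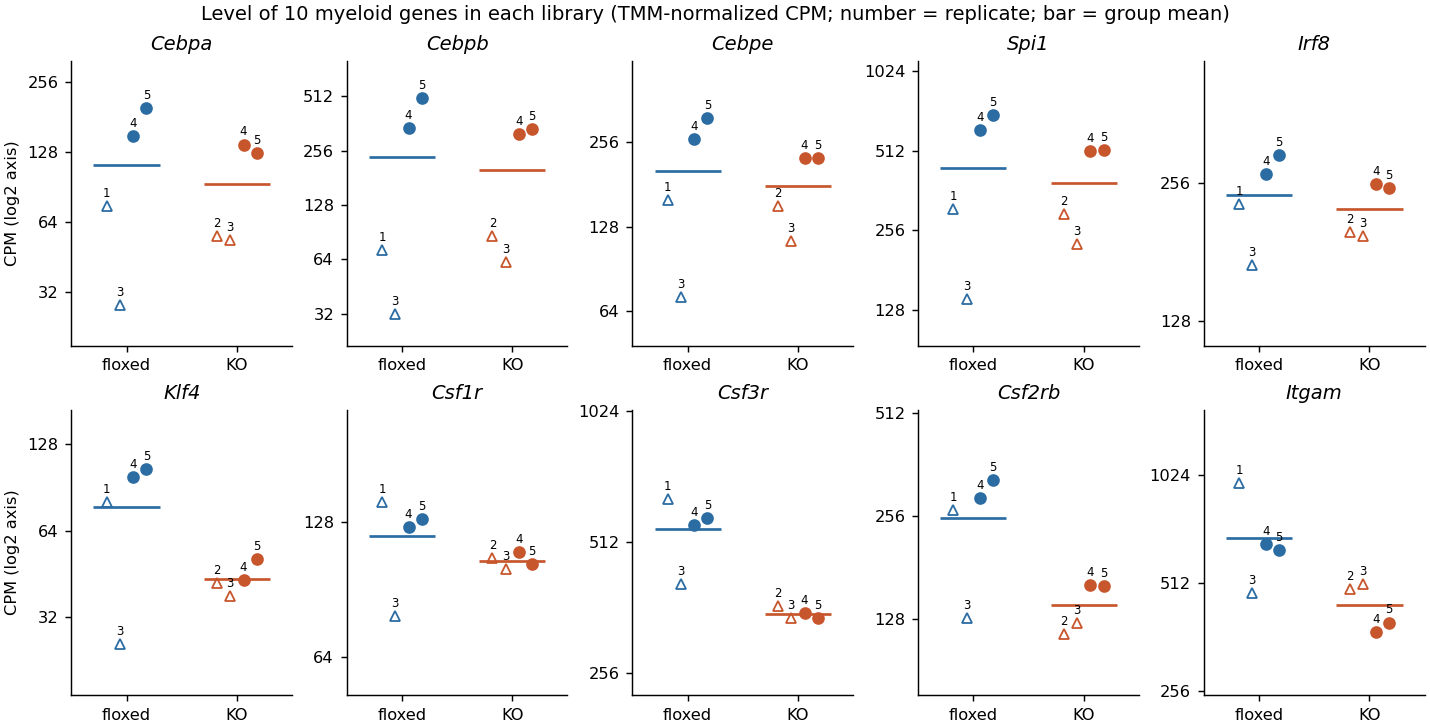
Level of each member in the 8 libraries, in CPM on a log2 axis. Triangles are replicates 1 to 3, filled circles are replicates 4 and 5, the number beside a point is the replicate and the bar is the mean of the group. Floxed replicate 3 is the lowest floxed library in every panel, and replicates 4 and 5 of both genotypes stand above the others for Cebpa, Cebpb, Cebpe, Spi1 and Irf8.

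Among the receptors, Csf3r separated the genotypes in the transcript with the highest summed count, which stood for the gene. Csf3r (chr4:126024550-126044440 of GRCm38) had 643, 409.5, 561 and 582 CPM in the floxed libraries, in the order of replicates 1, 3, 4 and 5, and 364, 342, 352 and 342 CPM in the KO libraries, in the order of replicates 2 to 5. All KO libraries lay below all floxed libraries, which held for 7.66% of all tested genes, and the KO libraries lay close together (350.0 ± 10.6 CPM against 549 ± 99.2 CPM, SD, n = 4 each). The log2 fold change was -0.65 (SE 0.18, adjusted p = 0.0806 from edgeR), and an exact two-sided permutation test gave p = 0.0286, the smallest that 4 against 4 libraries allow. Csf3r was the only member whose groups did not overlap in the transcript that stood for the gene. In ENSMUST00000030673.6, which starts further inside Csf3r, floxed replicate 3 had 327 CPM and KO replicate 2 had 346 CPM. Its log2 fold change was -0.50 (adjusted p = 0.234 from edgeR over single transcripts). The groups of ENSMUST00000140426.1 overlapped too, while those of the nested 5′ transcript described below did not.

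Csf2rb (chr15:78325752-78353847) had 267, 129, 289 and 325 CPM in the floxed libraries and 116, 125, 161 and 160.4 CPM in the KO libraries. Floxed replicates 1, 4 and 5 stood far above all KO libraries, and floxed replicate 3 lay among them. The log2 fold change was -0.85 (SE 0.28, adjusted p = 0.116 from edgeR). Its neighbour and near copy Csf2rb2, which encodes the IL-3-specific β chain of mice, gave -0.72 (SE 0.22, adjusted p = 0.102 from edgeR). Of the 50-base stretches of the longest Csf2rb transcript, 18.4% also occur in Csf2rb2, so that reads of the pair may be exchanged to some degree.

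Csf1r (chr18:61105572-61132149), the receptor of the monocyte lineage, had 142, 78.9, 125 and 129.8 CPM in floxed and 107, 100.3, 109.6 and 103 CPM in KO libraries. The KO libraries lay inside the range of the floxed ones, and the log2 fold change was -0.18 (SE 0.19, adjusted p = 0.633 from edgeR). The gene Hmgxb3 overlaps Csf1r on the opposite strand, with a count that is 17.2% of that of Csf1r. As the counts cover both strands, shared reads cannot be told apart in this level or in its ratios. The ratio of Csf1r to Csf3r counts was 0.221, 0.193, 0.222 and 0.223 in floxed and 0.293, 0.293, 0.311 and 0.302 in KO libraries. The groups do not overlap in this ratio (exact two-sided permutation p = 0.0286, adjusted p = 0.257 over the 45 pairs of members). Of the 45 pairs, 5 did not overlap, which is 11.1%, and the ratio of any tested gene to a member did not overlap in 10.7%. The share of such pairs among the members was thus near that background.

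Itgam (chr7:128062640-128118491), the integrin gene, had 968, 479.7, 658 and 631 CPM in floxed and 493, 509.6, 374 and 397 CPM in KO libraries. Floxed replicate 3 lay among the KO libraries, and the other floxed libraries all lay above them. The log2 fold change was -0.63 (SE 0.24, adjusted p = 0.170 from edgeR). The gene model Gm49368 overlaps Itgam on the same strand with about as many counts, and the shared reads cannot be assigned to either.

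Klf4 (chr4:55527143-55532466), a monocyte factor, was the transcription factor with the lowest fold change. It had 80.6, 25.8, 98.6 and 105 CPM in floxed and 42.1, 37.8, 43.1 and 51.2 CPM in KO libraries. Floxed replicate 3 had the lowest level of all 8 libraries, and the other floxed libraries were all above the KO libraries. The log2 fold change was -0.83 (SE 0.36, adjusted p = 0.218 from edgeR).

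The C/EBP factors and PU.1 varied far more among mice of 1 genotype than between genotypes. Cebpa (chr7:35119293-35121928) had 74.6, 28.0, 150.4 and 197 CPM in floxed and 55.7, 53.7, 138 and 127 CPM in KO libraries. Cebpb (chr2:167688915-167690418) had 72.1, 31.8, 341 and 503 CPM in floxed and 85.8, 61.6, 316 and 338 CPM in KO libraries. For both genes, replicates 4 and 5 of either genotype were above all other libraries. Cebpe (chr14:54710360-54712174) had 159, 71.9, 263 and 313 CPM in floxed and 151, 113, 225 and 225 CPM in KO libraries. Spi1 (chr2:91082390-91115756) had 308, 140.3, 612 and 698 CPM in floxed and 294, 228, 512 and 516 CPM in KO libraries. The order of the libraries was nearly the same for the 4 genes. Their log2 fold changes lay between -0.27 for Cebpa and -0.17 for Cebpe, with SE of 0.42 to 0.83 and adjusted p from 0.822 to 0.900 in edgeR.

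Irf8 (chr8:120736358-120756694), which directs progenitors to monocytes and dendritic cells and away from granulocytes, had the smallest SE of the factors. It had 230.3, 169.9, 267 and 294 CPM in floxed and 199.96, 196, 254 and 249.9 CPM in KO libraries. The groups overlap, and the log2 fold change was -0.09 (SE 0.20, adjusted p = 0.831 from edgeR). The predicted gene Gm20388 spans Irf8 on the same strand, and Tmem189 and Gm45091 overlap Cebpb and Cebpa on the opposite strand. The count of Gm20388 is 1715% of that of Irf8. The count of Tmem189 is 95.4% of that of Cebpb, and the count of Gm45091 is 10.3% of that of Cebpa. As the counts cover the span of a transcript and both strands, reads of these overlaps cannot be told apart.

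Levels of different genes are compared per kilobase of exon, as CPM per kb in the floxed mice. Spi1 had 163 ± 96.6, Cebpe 163 ± 86.7, Cebpb 157 ± 149, Csf3r 152 ± 27.5 and Itgam 136 ± 40.8 CPM per kb (SD, n = 4). These 5 do not differ beyond their spread. A lower group followed with Cebpa at 42.7 ± 28.7, Csf2rb at 34.7 ± 11.8, Irf8 at 34.1 ± 7.62, Klf4 at 25.4 ± 11.8 and Csf1r at 20.6 ± 4.79 CPM per kb, and neighbours in this order again lie within each other's spread. The counts also hold reads of introns, so these values are too high for genes with long introns, and the order depends on the length used. Per kb of genomic span, Cebpb had 157 ± 149, Cebpe 111 ± 59.3 and Cebpa 42.8 ± 28.8 CPM, ahead of Csf3r (27.6 ± 4.99), Spi1 (22.4 ± 13.2) and Itgam (12.3 ± 3.67 CPM per kb of span). By their means, Cebpb and Cebpe stood high and Csf1r stood last on both scales. Cebpb ranged from 21.1 to 334 CPM per kb of exon over the floxed libraries, so its place differs by library. Its level may also hold reads of the overlapping gene Tmem189.

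The count of members that passed in edgeR changed when floxed replicate 3 was left out. Floxed replicate 3 was the lowest of the 4 floxed libraries for 10 of 10 members (32.5% of all tested genes) and the lowest of all 8 for 7 of 10 (21.1%). Without it, 4 members passed the test and fell in KO mice, where 8.64% of all tested genes fell. The log2 fold change was then -1.11 for Klf4 (SE 0.15, adjusted p = 0.00193), -1.06 for Csf2rb (SE 0.16, adjusted p = 0.00320), -0.75 for Csf3r (SE 0.11, adjusted p = 0.00286) and -0.75 for Itgam (SE 0.19, adjusted p = 0.0306, all from edgeR). Csf1r stood at -0.32 (adjusted p = 0.0606 from edgeR), and the C/EBP factors, Spi1 and Irf8 had adjusted p from 0.361 to 0.635. Leaving out any of the other 7 libraries gave 0 members past the test. The same replicate had the lowest summed level of 10 neutrophil markers, 16354 CPM against 45181 to 50751 CPM in the other floxed and 24185 to 31289 CPM in the KO libraries, with none of these markers at 0. It also had the lowest summed level of 10 monocyte markers, 643 CPM against 969 to 1725 CPM elsewhere. The part of this library, and of the neutrophil and monocyte markers that move with it, in the result was not tested.

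**Figure D2:**
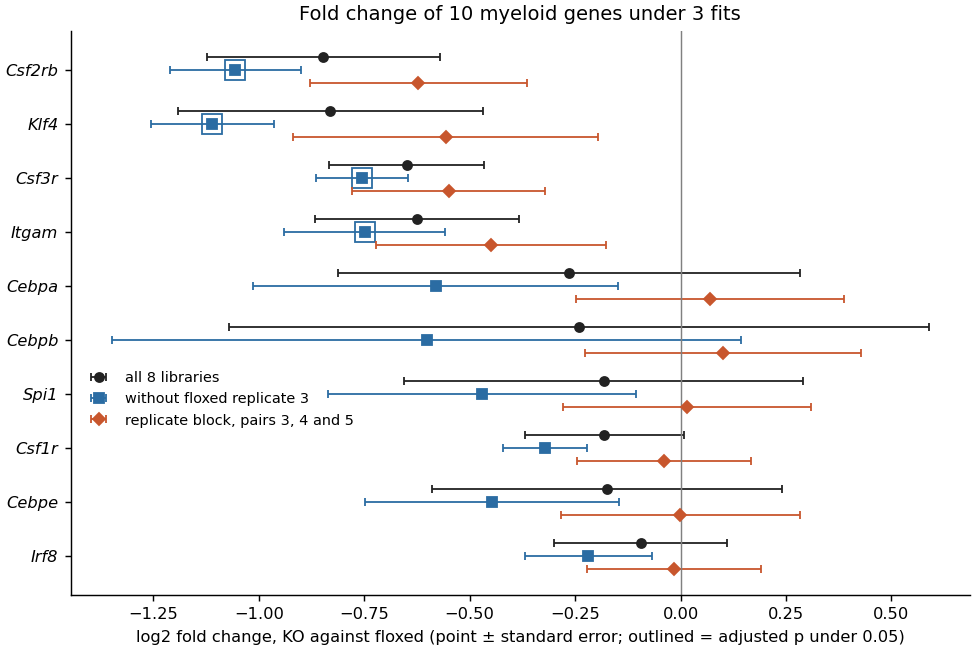
Log2 fold change of each member in KO against floxed mice with its standard error, from edgeR with all 8 libraries (black circles), without floxed replicate 3 (blue squares) and blocked by replicate number in pairs 3, 4 and 5 (orange diamonds). Outlined points have an adjusted p under 0.05, which Klf4, Csf2rb, Csf3r and Itgam reach without floxed replicate 3 and no member reaches in the other fits shown.

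Replicates 4 and 5 gave the same order for every member. In these 4 libraries, both KO mice were below both floxed mice for 10 of 10 members, against 31.6% of all tested genes. In replicates 1 to 3, this held for 2 of 10, Csf3r and Csf2rb, against 25.7%. The log2 difference between genotypes was -0.54 for Csf3r in replicates 1 to 3 and -0.72 in replicates 4 and 5, and for Csf2rb it was -0.62 and -0.93. For Klf4 it was -0.19 and -1.10, for Itgam -0.44 and -0.74, and for Csf1r -0.04 and -0.26. The C/EBP factors and Spi1 turned direction, with 0.25 to 0.59 in replicates 1 to 3 and -0.38 to -0.34 in replicates 4 and 5. With a term for this split, Csf3r (-0.65, adjusted p = 0.0238) and Csf2rb (-0.83, adjusted p = 0.0241) passed in edgeR, where 9.65% of all tested genes passed in that direction. Under a block for the replicate number (pairs 3, 4 and 5), which leaves out floxed replicate 1 and KO replicate 2, Csf3r gave -0.55 (adjusted p = 0.274) and Csf2rb -0.62 (adjusted p = 0.272), and Cebpa, Cebpb and Spi1 gave 0.07, 0.10 and 0.02. The split into replicates 1 to 3 and 4 to 5 was seen in the counts and is not in the labels.

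The factors that stood above all other libraries in replicates 4 and 5 have the highest GC content of the members. Cebpb, Cebpa, Cebpe, Spi1 and Irf8 were above all other libraries in replicates 4 and 5 of both genotypes, 5 of 10 members against 12.5% of all tested genes. Their transcripts have a GC content of 67.2%, 62.6%, 61.5%, 58.9% and 55.1%, and the mean log2(CPM + 1) was higher by 2.62, 1.57, 1.09, 1.32 and 0.42 in replicates 4 and 5. The other members have a GC content of 54.2% to 54.6%, with a difference of 0.68 for Klf4, 0.57 for Csf2rb, 0.15 for Csf1r and 0.07 for Csf3r, apart from Itgam at 48.9% (-0.23). Klf4 and Csf2rb thus differed by more than Irf8 at a slightly lower GC content. Over all genes of at least 5 CPM, the median of this difference ran from -0.49 in transcripts of up to 40% GC to 0.68 in those above 60%. The GC content is that of the spliced transcript, whereas the counts also hold reads of introns. It therefore does not describe all of the sequence that was counted. For Cebpb exons and span are both 1.5 kb, while Spi1 has 2.7 kb of exon in a span of 19.7 kb. The part of GC content in the level of these factors was not tested.

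**Figure D3:**
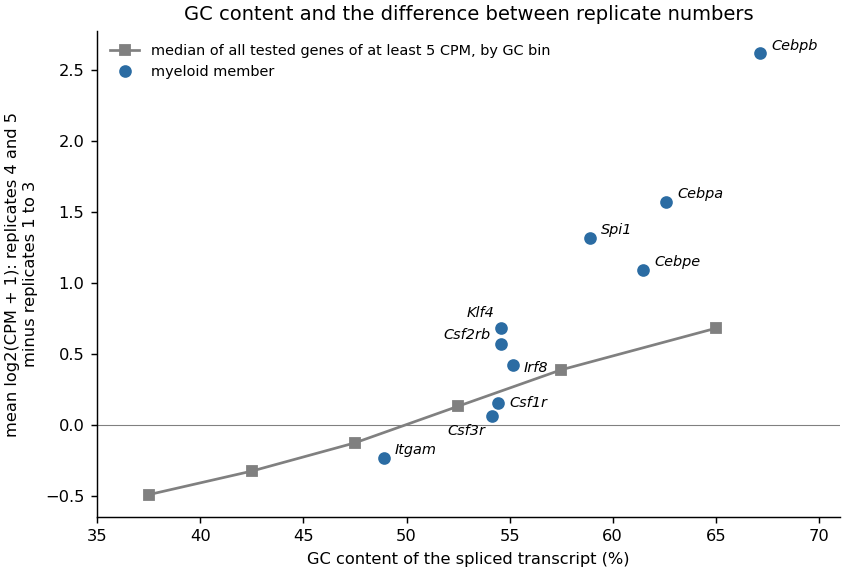
Difference in mean log2(CPM + 1) between replicates 4 and 5 and replicates 1 to 3, both genotypes together, against the GC content of the spliced transcript in percent. The counts also hold reads of introns, which this GC content leaves out. Blue points are the members and grey squares the median of all tested genes of at least 5 CPM in 6 bins of GC content, of which the outer bins are drawn at 37.5% and 65%. Cebpb, Cebpa, Cebpe and Spi1 lie above the line of medians, and Itgam, Csf3r and Csf1r lie near it or below it.

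In the fit of all 8 libraries, the transcripts of members that passed lay in the 5′ part of Csf3r and Csf2rb. The counts behave as reads over the whole span of each transcript, introns and both strands included. A check was made on 4448 transcripts of at least 100 counts that lie inside an intron of a transcript of another gene. The host transcript had at least as many counts in all 8 libraries for 4448 of them, 2822 on the opposite strand included, whereas the nearest transcript upstream of another gene did for 30.1%. Of 1112 sets of transcripts of 1 gene with the same ends and different exon lengths, 1109 had identical counts. The methods name an alignment to reference transcripts, which alone would not give such counts. By this reading, a short transcript nested at the 5′ end of a gene reports the first part of that gene alone. In a test of 82560 transcripts, 6 of the 38 tested transcripts of members passed, all lower in KO mice, against 2.0% of all transcripts. Of these, 5 are nested transcripts of Csf2rb, whose spans overlap, so that they share reads and are not independent, and 1 is a nested transcript of Csf3r. One nested transcript at the 5′ end was found for 4044 genes, 5 members among them (Irf8, Klf4, Csf3r, Csf2rb and Itgam), and 3.48% of the 4018 that were tested fell, with a median log2 fold change of -0.24.

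The longest of the Csf2rb transcripts that passed, ENSMUST00000231888.1 (chr15:78326056-78338974), had 25.3, 16.4, 11.99 and 15.9 CPM in floxed and 3.46, 5.44, 3.23 and 4.31 CPM in KO libraries. The groups do not overlap, floxed replicate 3 included, and the log2 fold change was -1.998 (SE 0.26, adjusted p = 0.00889 from edgeR). The share of all transcripts, or of all nested 5′ transcripts, without overlap was not counted. The median log2 fold change was -0.24 for the nested 5′ transcripts and -0.023 for all transcripts. Transcripts over the whole of Csf2rb gave -0.80 (adjusted p = 0.165). For Csf3r, the 5′ transcript ENSMUST00000153968.1 (chr4:126024726-126031896) had 191, 145, 83.4 and 114 CPM in floxed and 49.6, 55.9, 50.5 and 46.8 CPM in KO libraries. It fell by 1.30 on the log2 scale (SE 0.21, adjusted p = 0.0208 from edgeR), while the transcript over the whole gene gave -0.59 (adjusted p = 0.137). Over the 8 fits that leave out 1 library, the fold change of the Csf2rb transcripts stayed between -2.20 and -1.73 and that of Csf3r between -1.44 and -1.07. The adjusted p of Csf3r was over 0.05 without any 1 of the 4 KO libraries, with 0.0902 as the highest value. It was also over 0.05 under the replicate block (-1.04, adjusted p = 0.0816), where 4 of the 5 Csf2rb transcripts passed (lowest adjusted p = 0.0372).

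The share of a gene's count that falls on its 5′ part also differed between libraries over all genes. The median over the 4044 genes was 14.3%, 16.5%, 9.45% and 11.6% in floxed and 10.6%, 10.6%, 9.86% and 9.82% in KO libraries. The share was 29.7%, 35.3%, 14.9% and 19.6% for Csf3r in floxed and 13.6%, 16.3%, 14.3% and 13.7% in KO libraries. For Csf2rb it was 9.49%, 12.7%, 4.14% and 4.88% in floxed and 2.99%, 4.34%, 2.01% and 2.69% in KO libraries. The share is thus highest in floxed replicates 1 and 3 for both genes, as it is for the median of all genes, and the groups overlap. In 0 of the 5 members with such a part was the share lower in every KO library, against 9.08% of the 4044 genes. Counts of Csf3r outside the 5′ part were 452, 265, 478 and 468 CPM in floxed and 315, 286, 302 and 295 CPM in KO libraries, so that floxed replicate 3 was then the lowest of all. The part of this shift over all genes in the result was not tested.

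**Figure D4:**
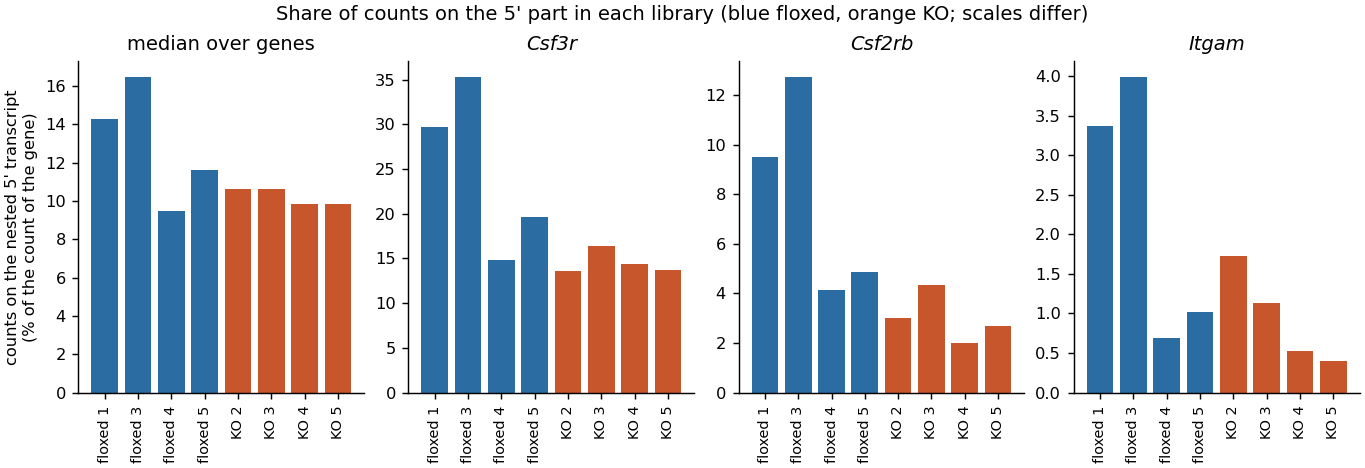
Share of the count of a gene that lies on a nested transcript at its 5′ end, in percent, for each library (blue floxed, orange KO). The left panel is the median over 4044 genes and the others are Csf3r, Csf2rb and Itgam, each on its own scale from 0. Floxed replicates 1 and 3 have the highest shares in all 4 panels.

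The other genes of the pathways were described by lists. Their counts are to be read against all tested genes, of which 12.1% were lower at an unadjusted p under 0.05 in edgeR. In DESeq2 6.2% were lower, and 50.4% had a log2 fold change below 0 in edgeR. The share of all genes higher at an unadjusted p or in DESeq2 was not counted. None of the 24 other myeloid fate factors passed the test (2 lower and 2 higher at an unadjusted p under 0.05, 1 lower and 1 higher in DESeq2), and the median log2 fold change was -0.24. Maf, a factor of macrophages, had 11.4 to 18.8 CPM in floxed and 23.7 to 30.5 CPM in KO libraries (0.77 on the log2 scale, adjusted p = 0.0581 from edgeR). The immediate early gene Egr1 gave -1.35 (adjusted p = 0.138). The values of this list thus stood on both sides of 0.

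Of 25 CSF ligands, other receptor chains and signal transducers, 21 were tested and 0 passed (3 lower and 1 higher at an unadjusted p under 0.05, 1 lower and 1 higher in DESeq2), with a median of -0.24. Cbl, a ubiquitin ligase that limits signalling by CSF1R and other kinase receptors, had 277 to 450.1 CPM in floxed and 174 to 211 CPM in KO libraries, with no overlap (-0.83 on the log2 scale, SE 0.19, adjusted p = 0.0501 from edgeR). All KO libraries lay below all floxed libraries for 7.66% of all tested genes. Il34, the second ligand of CSF1R, had 0.383 to 1.15 CPM in floxed and 1.27 to 2.06 CPM in KO libraries (1.39, adjusted p = 0.0809). The ligands acting through CSF2RB and CSF3R were close to absent from the counts. Csf2 had at most 4 counts in a library, Csf3 at most 4 and Il5 at most 2, and Il3 had 0 counts in all 8, where 3 counts would be 0.0567 to 0.128 CPM. Csf2ra, the α chain that pairs with CSF2RB for GM-CSF, gave 0.08 (adjusted p = 0.935).

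Genes that act downstream in mature cells had lower medians. Of 20 β2 integrins and myeloid surface receptors, 0 passed (8 lower and 0 higher at an unadjusted p under 0.05, 4 lower in DESeq2), 18 had a value below 0 and the median was -0.59. Of all tested genes, 12.1% were lower at that unadjusted p, 6.2% were lower in DESeq2 and 50.4% were below 0. Cd33, a sialic acid-binding receptor, had 324 to 629 CPM in floxed and 228 to 279.5 CPM in KO libraries (-0.92, adjusted p = 0.0531). Itgal, the α chain of LFA-1, gave -0.77 (adjusted p = 0.0705), and the chemokine receptor Cxcr2, which guides neutrophils out of the marrow, gave -1.01 (adjusted p = 0.0708). Of 20 granule and effector genes, 0 passed (2 lower and 0 higher at an unadjusted p under 0.05, 1 lower in DESeq2) and the median was -0.52. Cybb, a subunit of the phagocyte NADPH oxidase, gave -0.90 (adjusted p = 0.0717), Mmp8, the neutrophil collagenase, -0.86 (adjusted p = 0.160) and Ctsg, cathepsin G, -0.56 (adjusted p = 0.238, all from edgeR). Without floxed replicate 3, 15 of the 20 surface genes and 11 of the 20 granule genes fell, with 5 of the 24 fate factors and 8 of the 21 CSF pathway genes, against 8.64% of all tested genes. In that fit 1 surface gene, 1 fate factor and 1 CSF pathway gene rose, with 0 granule genes, against 8.9% of all tested genes.

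Genes whose level followed the mean of the members most closely over the 8 libraries were Zyx (Pearson's r = 0.999), Bcl3 (0.998), Ywhag (0.998), Tnfrsf1a (0.997) and Zfp36 (0.997), of 10643 genes compared. The nearest to Csf3r alone were Tmem154 (0.995), Zc3h12d (0.995) and Wdfy2 (0.994), and the nearest to Csf1r were Gpi1 (0.971), Sqor (0.967) and Gpr65 (0.967). These coefficients describe 8 libraries that share the depth, replicate and genotype differences given above, and the highest of 10643 values are high by selection.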

How the data were processed

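Transcript counts of 8 libraries of sorted cells were used, 4 for each genotype. Per the methods, the authors ran FastQC and Trim Galore on the reads before alignment with Bowtie 2 to GRCm38/mm10, and the deposited values are raw counts of reads on each of 138930 transcripts, without normalization. In 7 of the 8 deposited files the counts are separated by tabs under a comma-separated name, and an automatic check of units could read them only as another unit, so whole numbers were checked separately. The counting tool, annotation and use of strand are not given in the sources used here, and a check of transcripts inside introns was used to see what a count covers. Groups and replicate numbers came from the sample labels. The members and gene lists were chosen with earlier results of these data known.

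GENCODE M21 holds 138789 of the transcripts and gave their genes. Since 1 read can be counted on several transcripts, the transcript with the highest summed count stood for its gene. After filterByExpr and TMM scaling, genotypes were compared with the quasi-likelihood test (glmQLFit, glmQLFTest) of edgeR 4.0.16 (R 4.3.3) without a block, with Benjamini-Hochberg adjustment over 21902 genes. DESeq2 1.42.0, limma-voom (limma 3.58.1), other scalings and filters, the sum over transcripts, a term for replicates 4 and 5, the replicate block and leaving out each library were alternatives. The test of each transcript, the counts outside the 5′ part, the ratios, the check of introns and the levels per kb of span were added after the data had been seen. Fits were tested on simulated data. Single values were compared with exact permutation tests over 70 labelings. Intervals of counting error were not needed, as members had at least 1215 counts in each library, and Python 3.11.15 with pandas 2.3.3 and scipy 1.17.1 was used for these steps.

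Replicate numbers 3, 4 and 5 occur in both genotypes in the labels. Deviations of same-numbered libraries from their group means correlated across genes with r = 0.427, 0.454 and 0.707. These values cannot show that equal numbers mark pairs. Libraries of unequal number were not set beside them, and replicates 4 and 5 share a shift in both genotypes. The block by number was therefore an alternative fit, and its values are printed where they change a direction or a count of calls. The named genes were the members, Ociad1, the 3 genes of smallest p in each of the 4 related lists, of which none had a gene past the test, and the genes with the highest correlation with the members. By the rule or a count of calls, 2 further genes would be named, which are not reported here. Csf2ra, Csf2, Csf3, Il3, Il5 and the marker genes were named after their values were seen. Lists of markers of 10 kinds of blood cells served to describe other cells in the libraries.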

Additional observations from a re-analysis of the deposited data

How the results depend on the processing

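In the edgeR fit of all 8 libraries, 651 genes passed the test and 261 of them also had a log2 fold change beyond 1.5 in either direction, while 0 members did. The count of members past the test was 2 with DESeq2, with library totals only and with the term for replicates 4 and 5, and 0 to 4 when 1 library was left out, the 4 without floxed replicate 3. No member passed the test with a fold change beyond 1.5 in any setting run. The counts of genes, all and beyond the fold, were 2447 and 503 with DESeq2, 4059 and 521 with the term for replicates 4 and 5, and 61 to 3875 and 51 to 857 when 1 library was left out (3875 without floxed replicate 3 and 264 without floxed replicate 4, with 61 to 97 without any other). With the replicate block, 48 genes passed and 44 of them were beyond the fold, and without a block in the same 6 libraries 24 and 23. The block changed the call of no member.

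The members that turned direction were transcription factors in each case. Under the replicate block Cebpa was 0.0696, Cebpb 0.101 and Spi1 0.0152. Cebpb was 0.0721 in limma-voom and 0.0671 with the term for replicates 4 and 5. With 1 library left out, Cebpa ranged from -0.58 to 0.15, Cebpb from -0.62 to 0.44, Cebpe from -0.45 to 0.12, Spi1 from -0.47 to 0.14 and Irf8 from -0.22 to 0.0210. Klf4, Csf1r, Csf3r, Csf2rb and Itgam stayed below 0 in all 18 alternatives run. With library totals only, the median of all genes moved to -0.20, and relative to it Csf3r was -0.63 and Csf2rb -0.83.

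The 6 transcripts of members past the test were 9 with DESeq2, 16 with the term for replicates 4 and 5 and 4 under the replicate block, and 3 to 19 when 1 library was left out (19 without floxed replicate 3, 3 without KO replicate 4 or 5 and 4 without KO replicate 2). Of all transcripts tested, 2.0% passed and were lower in KO mice in edgeR, and 6.88% in DESeq2. With the term for replicates 4 and 5 this share was 11.2%, and under the block 0.138%. Without floxed replicate 3 it was 6.72%, and without KO replicate 4, 5 or 2 it was 0.0459%, 0.0553% and 0.0695%. The counts of members are to be read against these shares. The causes of these differences were not tested. With 4 libraries a group, the SE of the log2 fold change ran from 0.18 for Csf3r to 0.83 for Cebpb. A change well beyond its SE could still miss the threshold, as Csf3r did at -0.65 (adjusted p = 0.0806 from edgeR). Changes of the C/EBP factors near their SE, 0.42 to 0.83, were thus not detectable.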

Other observations

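Other cells of the myeloid lineage moved in both directions among their markers. Of 10 markers of eosinophils, basophils and mast cells, 2 rose and 1 fell, where 1.22% of all tested genes rose and 1.75% fell. Prg2, which encodes the eosinophil major basic protein, had 479 to 696 CPM in floxed and 1280 to 1698 CPM in KO libraries (1.24 on the log2 scale, adjusted p = 0.0252 from edgeR), and Ccr3, the eotaxin receptor, rose by 1.20 (adjusted p = 0.0475). Fcer1a, the α chain of the high-affinity IgE receptor of mast cells and basophils, fell by 2.22 on the log2 scale (adjusted p = 0.0346). The summed level of the list was 757 to 1150 CPM in floxed and 1772 to 2170 CPM in KO libraries. Prg2 alone made up much of this sum. Of the 10 markers, 5 had a log2 fold change below 0, against 50.4% of all tested genes, and the median of the list was 0.12. Il5ra, the chain that pairs with CSF2RB for IL-5 in eosinophils, gave 0.29 (adjusted p = 0.614).

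Against the same background of 1.22% higher and 1.75% lower, markers of megakaryocytes and platelets rose for 7 of 10 genes, with a summed level of 162 to 249.9 CPM in floxed and 329.6 to 390.0 CPM in KO libraries, and 3 of 9 tested erythroid markers rose. Of 10 B cell markers, 2 rose. Of 10 plasma cell markers, 2 fell, Jchain (-1.66, adjusted p = 0.0239) and Prdm1 (-1.20, adjusted p = 0.0383), and of 10 T and NK cell markers 1 fell, Ncr1 (-1.72, adjusted p = 0.0291, all from edgeR). Of the dendritic cell markers, as of the neutrophil and monocyte markers, 0 of 10 passed the test, with 1 lower and 1 higher dendritic, 3 lower neutrophil and 1 lower monocyte marker at an unadjusted p under 0.05. By DESeq2, 2 neutrophil, 1 monocyte and 0 dendritic cell markers were lower. Of all tested genes, 12.1% were lower at that unadjusted p in edgeR and 6.2% were lower in DESeq2. Of 10 stem and progenitor markers, 1 rose and 0 fell in edgeR. The genes of these lists were named after their values were seen.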
